A study of Mus musculus with 9 samples.

Results

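The colons of mice with colitis were compared 1 day after an injection of human mesenchymal stem cells (MSCs) from 2 sources, umbilical cord tissue (UC-MSC) and adipose tissue (AD-MSC). All mice were C57BL/6 males aged 10 to 12 weeks that drank dextran sulfate sodium (DSS), which damages the colonic epithelium, and the MSCs entered through a vein. A control group had DSS and phosphate-buffered saline without cells, and its level is given beside named genes for reference only. RNA came from the middle of the colon, with 3 libraries for each group, so each group is a small set of mice at a single early time of acute colitis. The human cells were foreign to the mouse, and no MSC preparation other than these can be judged from the groups. The comparison took every protein-coding gene whose mean over the MSC groups was at least 10 normalized reads, 13557 of 22571 protein-coding genes and of 38087 genes in all. The table held 1 mean for each gene and group, the authors' mean of log2 normalized reads over 3 libraries. No spread between mice could be computed, no test was run, and no difference below has a replicate check.

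MSCs injected into a vein lodge largely in the lung, and their action on distant tissue is usually ascribed to factors that they release. DSS strips epithelium from the colon, after which wound-edge cells spread over the ulcer, neutrophils and monocytes enter, and fibroblasts and muscle remodel the matrix. Surviving crypts switch from mature absorptive genes to a regenerative program, and mitosis later refills the crypts. Gene lists for each of these roles were set against the difference UC-MSC minus AD-MSC. Levels are given in normalized reads, as powers of 2 of the deposited log2 means, and they depend on gene length, so they are compared between groups and not between genes. The counting error beside a log2 difference is the part that the number of reads alone would give, and it holds no variation between mice.

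The median log2 difference was -0.01 over the 13557 genes, a value that the authors' normalization between libraries brings near 0 by design. A central span from -0.23 to 0.26 held the genes between the 25th and 75th percentiles. At least 2-fold higher in UC-MSC were 605 genes (4.46%), and lower by 2-fold or more were 290 genes (2.14%), 895 (6.6%) in all. These percentages are the background for the counts within lists below. At least 4-fold higher were 78 genes, and 32 were at least 4-fold lower. Among the 5604 genes that averaged 200 normalized reads or more, 89 were higher by 2-fold or more and 47 lower by 2-fold or more. Scaling both groups to equal totals moved each difference by -0.06 and gave 528 and 341 genes, so the higher share of the 2-fold genes went from 67.6% to 60.8%. The rule kept *Pcsk4*, with a mean of 10.01, and left out *Hist1h2bk*, with a mean of 9.98.

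**Figure D1:**
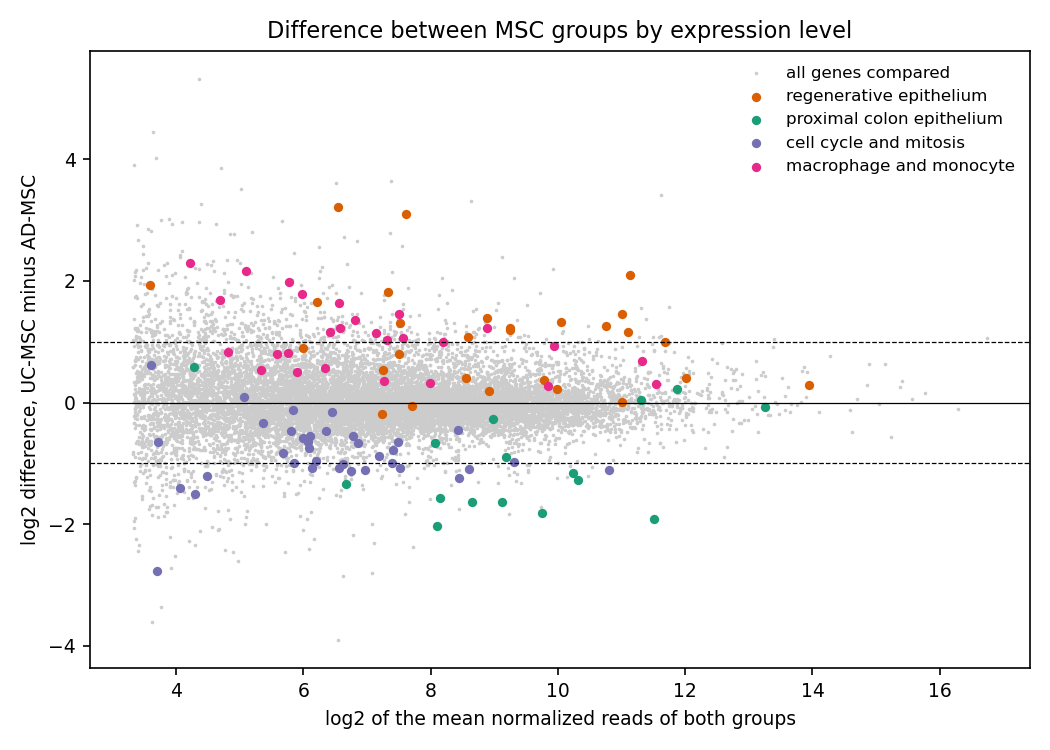
Log2 difference UC-MSC minus AD-MSC (vertical axis) against log2 of the mean normalized reads of both groups (horizontal axis), 1 point for each of 13557 genes, with 4 gene lists coloured and dashed lines at 2-fold. The regenerative and macrophage genes lie mainly above 0 and the proximal colon and cell cycle genes mainly below it, at low and high levels alike.

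The tissue carried the genes that define colonic epithelium, and 7 of 8 such markers lay within 2-fold between the MSC groups. *Epcam*, an adhesion protein of all epithelial cells, had 10885 in AD-MSC, 11004 in UC-MSC and 10305 in control (log2 difference 0.02, counting error 0.01). *Vil1*, the brush border protein villin, had 3849.6 in AD-MSC, 4311 in UC-MSC and 4127 in control (log2 difference 0.16, counting error 0.02), and *Car1*, a carbonic anhydrase of colonocytes, had 3455 in AD-MSC, 4015 in UC-MSC and 2526 in control (log2 difference 0.22, counting error 0.02). The mucin of goblet cells, *Muc2*, had 29464 in AD-MSC, 21137 in UC-MSC and 17012 in control (log2 difference -0.48, counting error 0.01). *Krt20*, the keratin of surface colonocytes, had 5468 in AD-MSC, 8029.7 in UC-MSC and 4895 in control (log2 difference 0.55, counting error 0.01). The marker past 2-fold was *Cdx2*, the transcription factor that maintains intestinal identity, with 307 in AD-MSC, 98.7 in UC-MSC and 184 in control (log2 difference -1.64, counting error 0.11), or 3.11-fold lower in UC-MSC. In bulk tissue, fewer cells of a type and less RNA for each cell cannot be told apart.

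Genes of regenerating, wound-edge epithelium were higher in UC-MSC. Of 33 listed genes, 28 were compared. Of these, 26 were above 0, 15 were higher by 2-fold or more (53.6% against 4.46% of all genes) and 0 lower by 2-fold or more, with a median of 1.12. *Emp1* (chr6:135362931-135383173), a membrane protein induced at epithelial wound edges, had 843 in AD-MSC, 3624 in UC-MSC and 793 in control (log2 difference 2.10, counting error 0.03). *Anxa1*, an annexin that dampens inflammation and aids closure of wounds, had 1099 in AD-MSC, 3014 in UC-MSC and 1942 in control (log2 difference 1.45, counting error 0.03). *Ly6a*, the surface antigen Sca-1 that marks repairing mouse colon epithelium, had 1361 in AD-MSC, 3049 in UC-MSC and 2187 in control (log2 difference 1.16, counting error 0.03). These were among the abundant members of the list. *Clu*, the chaperone clusterin that marks revival stem cells of mouse intestine, had 249 in AD-MSC, 523 in UC-MSC and 509 in control (log2 difference 1.07, counting error 0.06), and *Plaur*, the urokinase receptor of migrating cells, had 71 in AD-MSC, 249.7 in UC-MSC and 158 in control (log2 difference 1.81, counting error 0.11). *Il33*, an alarmin, had 35.8 in AD-MSC, 112 in UC-MSC and 50.6 in control (log2 difference 1.65, counting error 0.16).

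Other members of the regenerative list act as signals or adhesion proteins. *Areg* and *Ereg*, ligands of the EGF receptor, had 369 in AD-MSC, 841 in UC-MSC and 981 in control (log2 difference 1.19, counting error 0.05) and 262 in AD-MSC, 687 in UC-MSC and 432 in control (log2 difference 1.39, counting error 0.06). *Il1rn*, the antagonist of the interleukin-1 receptor, had 1018 in AD-MSC, 2431 in UC-MSC and 1557 in control (log2 difference 1.26, counting error 0.03), and *Cldn4*, a sealing claudin, 105 in AD-MSC, 262 in UC-MSC and 138 in control (log2 difference 1.32, counting error 0.09). For *Areg* and *Clu*, among others, control was closer to UC-MSC, and AD-MSC was the group that stood lower. The list summed to 31542 with AD-MSC, 50052 with UC-MSC and 44316 with saline alone, so by this sum control also stood nearer UC-MSC. Not every member followed, since *Emp1* had a control level near AD-MSC. The YAP-related genes *Yap1* (0.20), *Ctgf* (0.41) and *Cyr61* (-0.19), given as log2 differences, stayed within 2-fold. Not every YAP-related member of the list did so. *Cyr61* was 1 of only 2 members below 0, with *Itga2* (-0.05).

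**Figure D2:**
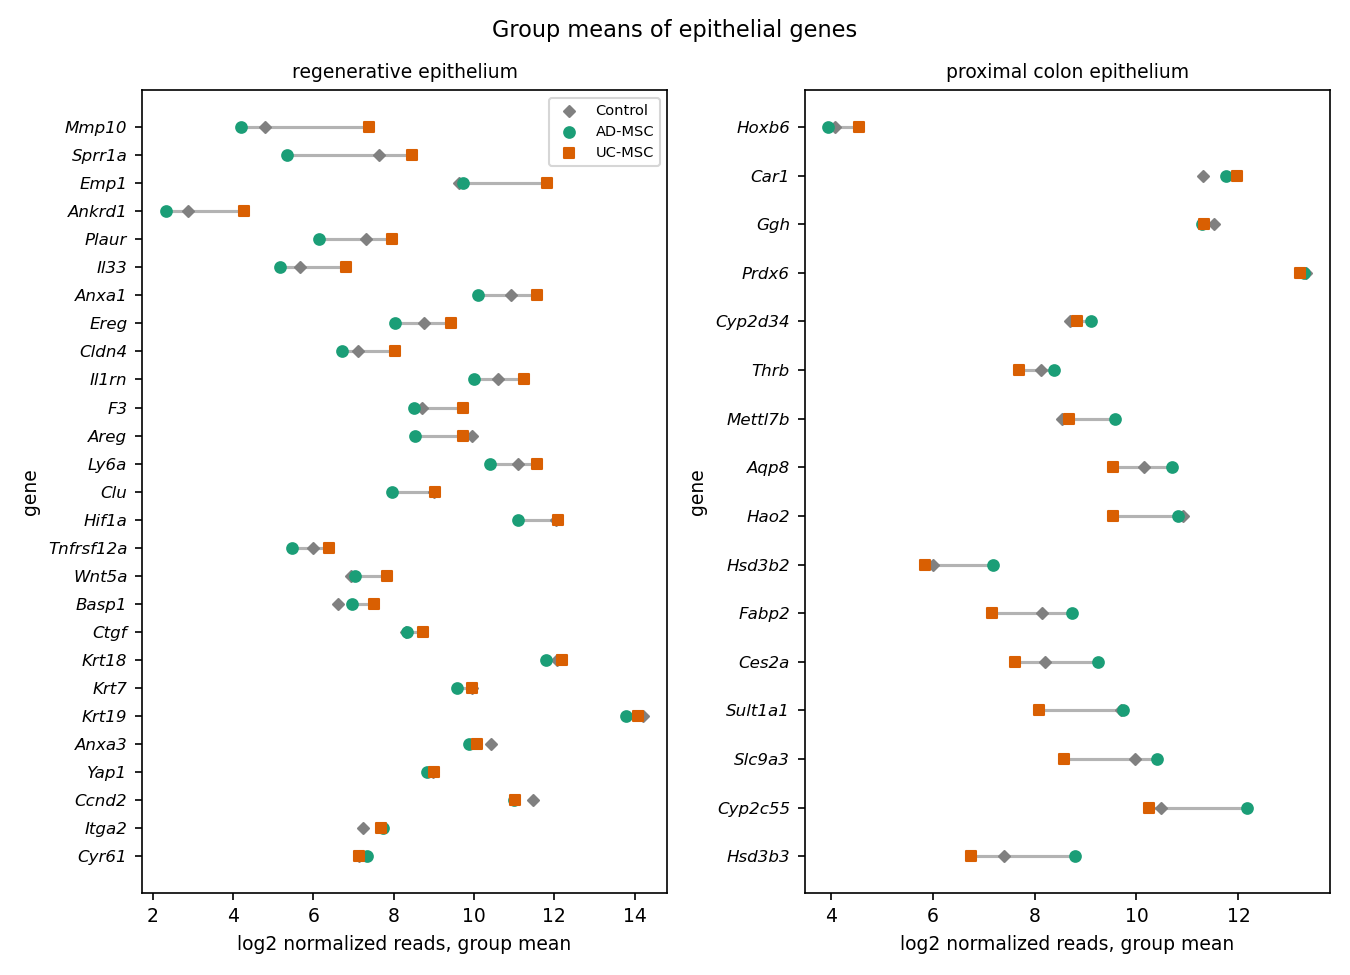
Group means in log2 normalized reads (horizontal axis) for 27 of the 28 regenerative genes and the 16 proximal colon genes compared, ordered by the difference, with 1 symbol for each group and a grey line from AD-MSC to UC-MSC. UC-MSC lies to the right of AD-MSC for 25 of the 27 regenerative genes plotted and to the left for 13 of 16 proximal colon genes.

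Several abundant genes of epithelium and the acute phase were also higher in UC-MSC. *Anxa8*, an annexin of stratified and injured epithelia, had 347 in AD-MSC, 1587 in UC-MSC and 615 in control (log2 difference 2.19, counting error 0.05). *Epha2*, an ephrin receptor kinase of epithelial cells, had 139.6 in AD-MSC, 505 in UC-MSC and 407 in control (log2 difference 1.85, counting error 0.08). *Serpina3n*, a protease inhibitor of the acute phase, had 247 in AD-MSC, 1027 in UC-MSC and 243 in control (log2 difference 2.05, counting error 0.06), and *Lbp*, the binding protein that presents bacterial lipopolysaccharide to CD14, 113 in AD-MSC, 467 in UC-MSC and 435 in control (log2 difference 2.04, counting error 0.08). *Dhrs9*, a retinol dehydrogenase, had 373 in AD-MSC, 1303 in UC-MSC and 592 in control (log2 difference 1.803, counting error 0.05). The chloride channel regulator *Clca6* was likewise higher, with 840.5 in AD-MSC, 2005 in UC-MSC and 1038 in control (log2 difference 1.25, counting error 0.03). All 6 genes were named by rules that required at least 2-fold.

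Epithelial defence genes were mostly higher in UC-MSC. Of 22 antimicrobial and acute phase genes compared, 10 were higher by 2-fold or more and 1 lower by 2-fold or more, with a median of 0.90. The median was 0.33 over the 16 genes with a mean of at least 50 and 0.58 over the 18 with reads in every library. *Retnlb*, a goblet cell protein that binds bacteria, had 34.9 in AD-MSC, 170.4 in UC-MSC and 198 in control (log2 difference 2.29). At least 1 AD-MSC library had no *Retnlb* reads or was at the floor, so 1 library may account for much of this difference. *Hp*, haptoglobin, had 22.5 in AD-MSC, 90.7 in UC-MSC and 34.2 in control (log2 difference 2.01, counting error 0.19), and *Lyz1*, the lysozyme of mouse Paneth cells, 13.3 in AD-MSC, 45.2 in UC-MSC and 26.2 in control (log2 difference 1.77, counting error 0.25). The antimicrobial lectins *Reg3g* and *Reg3b* had 22.2 in AD-MSC, 49.7 in UC-MSC and 18.1 in control (log2 difference 1.16) and 61.2 in AD-MSC, 109 in UC-MSC and 21.4 in control (log2 difference 0.83). The exception was *Reg4*, a lectin of deep crypt secretory cells, with 142 in AD-MSC, 49 in UC-MSC and 402 in control (log2 difference -1.53, counting error 0.15). The members summed to 138232 with AD-MSC and 134941 with UC-MSC, so the abundant members did not follow the low ones.

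Matrix metalloproteinases cut collagen and other matrix, and TIMPs inhibit them. Of 29 listed genes, 25 were compared, 10 were higher by 2-fold or more in UC-MSC and 0 lower by 2-fold or more, with a median of 0.90. The stromelysins *Mmp3* (chr9:7445822-7455972) and *Mmp10* (chr9:7502352-7510238) and the collagenase *Mmp13* (chr9:7272514-7283333) lie in a single cluster on chromosome 9. *Mmp3* had 53.5 in AD-MSC, 320.2 in UC-MSC and 89.1 in control (log2 difference 2.58, counting error 0.12). *Mmp13* had 53.2 in AD-MSC, 185 in UC-MSC and 21.1 in control (log2 difference 1.801, counting error 0.12). *Mmp10* differed most, 9.25-fold, from 18.2 to 168 normalized reads. The gelatinase of neutrophils, *Mmp9*, had 10.3 in AD-MSC, 33.5 in UC-MSC and 11.8 in control (log2 difference 1.71, counting error 0.29), and *Mmp19* 58.1 in AD-MSC, 159 in UC-MSC and 69.9 in control (log2 difference 1.46, counting error 0.12). The aggrecanases *Adamts4* and *Adamts1* had 122 in AD-MSC, 329 in UC-MSC and 204 in control (log2 difference 1.43, counting error 0.09) and 183 in AD-MSC, 429 in UC-MSC and 307 in control (log2 difference 1.23, counting error 0.07). Inhibitors were higher too: *Timp1* was 7.96-fold higher, and *Timp2* and *Timp3* had log2 differences of 0.90 and 0.81. Other metalloproteinases, *Mmp15* (0.08), *Mmp23* (-0.16), *Mmp24* (-0.20) and *Mmp28* (-0.12) stayed within 2-fold.

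The promoters of the 3 clustered genes are shown because these genes differed together and each carries the letters bound by AP-1, the FOS and JUN factors that drive inducible metalloproteinases. The sequences are the 150 bases before the RefSeq start on GRCm38.p6, read 5′ to 3′ on the gene's strand, and capitals mark TGANTCA.
*Mmp3* (chr9:7445672-7445821, plus strand): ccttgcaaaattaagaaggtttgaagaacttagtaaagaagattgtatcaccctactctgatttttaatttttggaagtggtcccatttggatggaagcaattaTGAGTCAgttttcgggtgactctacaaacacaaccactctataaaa
*Mmp10* (chr9:7502192-7502341, plus strand): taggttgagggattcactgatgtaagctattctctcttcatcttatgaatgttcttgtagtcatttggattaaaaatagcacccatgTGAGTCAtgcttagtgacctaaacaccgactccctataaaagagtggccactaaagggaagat
*Mmp13* (chr9:7272364-7272513, plus strand): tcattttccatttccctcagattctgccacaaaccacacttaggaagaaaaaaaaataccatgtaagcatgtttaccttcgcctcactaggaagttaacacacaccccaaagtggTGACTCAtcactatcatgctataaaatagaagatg
The motif began at -46, -63 and -35 from the start, respectively. The pattern reads the same on both strands, and it was searched from 250 bases before to 50 after the start. Of 27025 genes with a RefSeq promoter, 8.97% had TGANTCA in the window, as had 6.65% of the genes compared with one. In the metalloproteinase list, 4 of the 18 genes with a promoter had it (22.2%), and in the regenerative list 7 of 18 (38.9%). These are matches of letters and not binding sites. Among the AP-1 genes themselves, *Fosl1* had 36.2 in AD-MSC, 139 in UC-MSC and 122 in control (log2 difference 1.94, counting error 0.15) and *Fosb* 44.4 in AD-MSC, 165 in UC-MSC and 133 in control (log2 difference 1.89, counting error 0.14). The immediate early list as a whole had 3 of 22 genes higher by 2-fold or more and a median of 0.56.

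Genes of neutrophils and of monocytes and macrophages were higher in UC-MSC. All 27 macrophage and monocyte genes compared, of 31 listed, were above 0, 14 of them at least 2-fold, with a median of 1.03. *Ccr2*, the receptor that brings monocytes out of the blood, had 45.9 in AD-MSC, 142 in UC-MSC and 39.2 in control (log2 difference 1.63, counting error 0.14). *Itgam*, the integrin CD11b, had 97.4 in AD-MSC, 267 in UC-MSC and 111 in control (log2 difference 1.45, counting error 0.10), and *Tyrobp*, the adaptor of myeloid receptors, 28.3 in AD-MSC, 98.2 in UC-MSC and 36.7 in control (log2 difference 1.79, counting error 0.17). Genes of resident or healing macrophages differed in the same direction. *Mrc1*, the mannose receptor, had 282 in AD-MSC, 662 in UC-MSC and 272 in control (log2 difference 1.23, counting error 0.06). *Cd163*, the haemoglobin scavenger receptor, had 57.4 in AD-MSC, 134 in UC-MSC and 64.2 in control (log2 difference 1.23, counting error 0.13). *Csf1r*, the receptor on which macrophages depend, had 195 in AD-MSC, 390.1 in UC-MSC and 199 in control (log2 difference 0.998, counting error 0.07). *Arg1*, an arginase of alternatively activated mouse macrophages, was low, with 6.29 in AD-MSC, 31.1 in UC-MSC and 1.69 in control (log2 difference 2.30, counting error 0.34). The lysosomal genes *Ctsb* (0.31), *Ctsd* (0.28) and the marker *Emr1*, which encodes F4/80 (0.57), differed less on the log2 scale.

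The neutrophil list was mostly too low to compare, with 7 of 24 genes kept, and 6 of these were higher by 2-fold or more. *Csf3r*, *Ltf* and *S100a9* were under 10 reads in AD-MSC and passed the limit through UC-MSC, so the limit itself favoured such counts. The list median of 1.71 was 1.36 without the limit on low values and 1.10 with 10 reads added to each group. *Csf3r*, the receptor for the granulocyte growth factor G-CSF, had 9.19 in AD-MSC, 46.5 in UC-MSC and 15.1 in control (log2 difference 2.34, counting error 0.28). *Ltf*, lactoferrin of neutrophil granules, had 7.88 in AD-MSC, 39.8 in UC-MSC and 11.4 in control (log2 difference 2.34, counting error 0.31). *S100a9*, a calprotectin subunit, had 3.47 in AD-MSC, 18.8 in UC-MSC and 5.3 in control (log2 difference 2.44). It had reads in 2 of the 3 AD-MSC libraries, so the size of its difference is uncertain. *Ly6g*, whose product is the antigen used to sort mouse neutrophils, had 149 in AD-MSC, 463 in UC-MSC and 194 in control (log2 difference 1.63, counting error 0.08). Whether the *Ly6g* reads came from neutrophils alone was not tested. *Il1b*, made by activated myeloid cells, had 26.1 in AD-MSC, 75.7 in UC-MSC and 56.2 in control (log2 difference 1.54, counting error 0.18), and *Cxcl5*, an epithelial attractant of neutrophils, 17.7 in AD-MSC, 97.3 in UC-MSC and 69.3 in control (log2 difference 2.46, counting error 0.20). *Cxcr2*, the receptor for that attractant, had 11.3 in AD-MSC, 25.7 in UC-MSC and 8.31 in control (log2 difference 1.18, counting error 0.29).

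**Figure D3:**
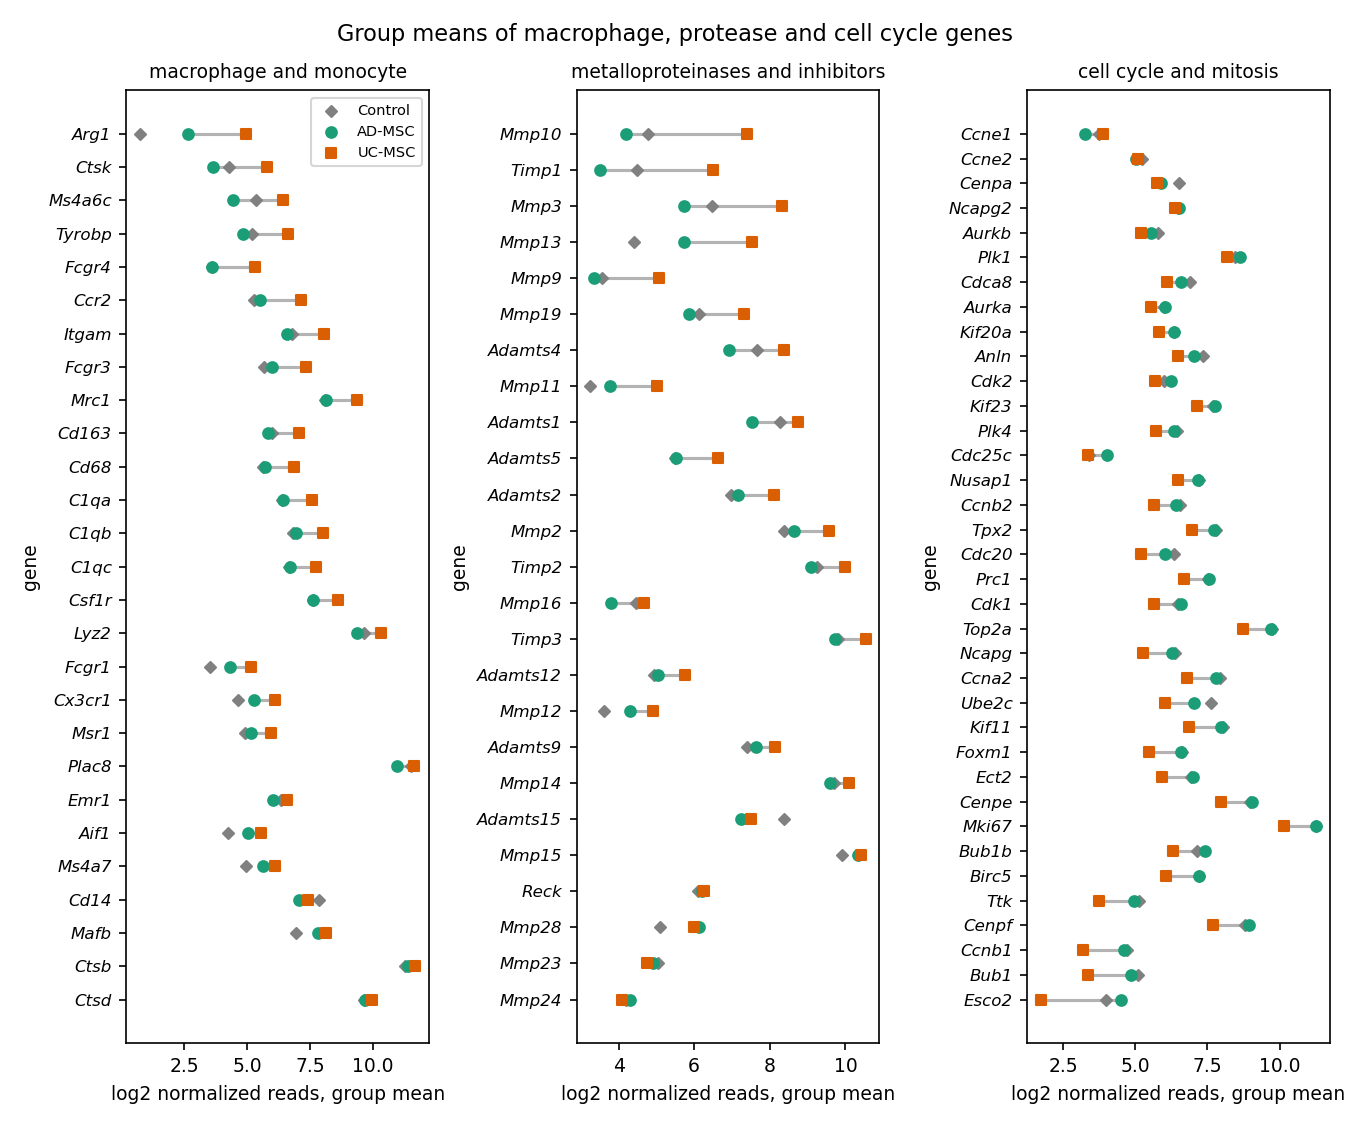
Group means in log2 normalized reads (horizontal axis) for the 27 macrophage, 25 metalloproteinase and inhibitor and 36 cell cycle genes compared, 1 symbol for each group and a grey line from AD-MSC to UC-MSC. UC-MSC is the higher of both MSC groups for 27 of 27 macrophage genes and the lower for 34 of 36 cell cycle genes.

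Complement and coagulation genes were likewise higher in UC-MSC. Of 22 complement genes compared, 13 were higher by 2-fold or more in UC-MSC (median 1.07). The central component *C3* had 1664 in AD-MSC, 3168 in UC-MSC and 2821 in control (log2 difference 0.93, counting error 0.03), and *C4b* 304 in AD-MSC, 721 in UC-MSC and 316 in control (log2 difference 1.24, counting error 0.06). *Cd55*, which protects host cells from complement, had 363 in AD-MSC, 1105 in UC-MSC and 423 in control (log2 difference 1.60, counting error 0.05), and *C3ar1*, the receptor for C3a, 34 in AD-MSC, 105 in UC-MSC and 30.3 in control (log2 difference 1.63, counting error 0.16). Components, inhibitors and receptors were among the higher genes. All 18 coagulation and plasminogen genes compared were above 0 and 7 at least 2-fold (median 0.89). *F3*, tissue factor, had 365 in AD-MSC, 849 in UC-MSC and 419.8 in control (log2 difference 1.22, counting error 0.05). The platelet and red cell list also was higher, with 4 of 8 at least 2-fold. Its median of 1.04 was 0.21 without the limit on low values. Its summed level was 186 for AD-MSC, 342 for UC-MSC and 347 for control, so AD-MSC was the lower group. The genes past 2-fold were all haemoglobin genes, *Hba-a1*, *Hba-a2*, *Hbb-b1* and *Hbb-b2*. The red cell marker *Alas2*, with a mean under the limit, was nearly level, at 9.50 for AD-MSC and 9.38 for UC-MSC (log2 difference -0.02). The part of blood in the tissue in these differences was not tested.

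Lymphocyte genes were low and uneven. T cell and NK cell genes had a median of 0.21 over 10 of 34 listed genes, which was 0.80 over the 5 that overlap no other gene and 0.04 without the limit on low values. *Cd4*, which macrophages may also carry, had 32.2 in AD-MSC, 77.3 in UC-MSC and 47.2 in control (log2 difference 1.27, counting error 0.17). *Cd8a* had 14.9 in AD-MSC, 8.17 in UC-MSC and 6.89 in control (log2 difference -0.87, counting error 0.39), *Cd3e* 11.3 in AD-MSC, 8.17 in UC-MSC and 11 in control (log2 difference -0.47, counting error 0.41) and *Cd3d* 11.1 in AD-MSC, 2.73 in UC-MSC and 11 in control (log2 difference -2.03, counting error 0.64), all below AD-MSC in UC-MSC and at few reads, *Cd3d* and *Cd3e* with means under the limit of 10. B cell genes were higher, with 6 of 10 compared at least 2-fold and a median of 1.15. Members such as *Cr2*, under 10 reads in AD-MSC, passed the limit through UC-MSC, so the limit itself favoured such counts. The median was 0.71 with 10 reads added to each group, 0.77 over the 6 that overlap no other gene and 1.29 without the limit on low values. *Cr2*, the complement receptor of B cells and follicular dendritic cells, had 7.51 in AD-MSC, 24.6 in UC-MSC and 59.7 in control (log2 difference 1.71, counting error 0.34), and *Cd22*, an inhibitory receptor of B cells, 17 in AD-MSC, 41.8 in UC-MSC and 59.4 in control (log2 difference 1.30, counting error 0.24). The control level of both was above both MSC groups. *Cxcl13*, the chemokine that forms B cell follicles, had 54.5 in AD-MSC, 101 in UC-MSC and 107 in control (log2 difference 0.89, counting error 0.14), and its receptor *Cxcr5* 6.27 in AD-MSC, 14.7 in UC-MSC and 24 in control (log2 difference 1.23, counting error 0.39). In the lymphoid follicle list 3 of 9 genes were higher by 2-fold or more, and the share of samples that held a follicle was not tested. Antigen presentation by MHC class II followed in part, with 4 of 12 genes higher by 2-fold or more, among them *Cd86*, a costimulator (12.3 to 30.9 normalized reads from AD-MSC to UC-MSC), and *H2-DMb2* (21.5 to 49.5).

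Not all inflammatory signals were higher. Interferon-stimulated genes had a median of -0.19 over 34 genes, 0 of them higher by 2-fold or more and 0 lower by 2-fold or more. Genes of MHC class I and peptide loading had a median of -0.19. *H2-T3*, which encodes the thymus leukaemia antigen of mouse gut epithelium, had 42.8 in AD-MSC, 15.7 in UC-MSC and 7.22 in control (log2 difference -1.45, counting error 0.27), although near copies of this gene make the value uncertain. Chemokines differed in both directions: 8 of 22 were higher by 2-fold or more and 2 lower by 2-fold or more. Among the higher were *Cxcl5*, described above, *Ccl22*, an attractant of regulatory T cells (10.3 to 32.2 normalized reads), and the monocyte and eosinophil attractants *Ccl8* (52.7 to 122 normalized reads), *Ccl9* (62.6 to 148) and *Ccl11* (94.2 to 214). Lower were *Ccl20*, made by epithelium over lymphoid follicles, with 40.9 in AD-MSC, 9.55 in UC-MSC and 62 in control (log2 difference -2.10, counting error 0.34), and *Ccl5*, made by T and NK cells, with 33.8 in AD-MSC, 10.1 in UC-MSC and 32.3 in control (log2 difference -1.74, counting error 0.33). *Ccl28*, an epithelial attractant of plasma cells, had 1421 in AD-MSC, 802 in UC-MSC and 1413 in control (log2 difference -0.83, counting error 0.04), below 2-fold.

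Signalling through interleukin-6 family receptors was represented by higher transcripts of receptors and targets. All 15 genes compared were above 0, and 3 were higher by 2-fold or more (median 0.61). *Il6st*, the shared receptor chain gp130, had 1333 in AD-MSC, 2239 in UC-MSC and 1336 in control (log2 difference 0.75, counting error 0.03). *Osmr*, the receptor for oncostatin M on stromal cells, had 175 in AD-MSC, 363 in UC-MSC and 195 in control (log2 difference 1.05, counting error 0.08). *Socs3*, the feedback inhibitor induced by STAT3, had 168 in AD-MSC, 432 in UC-MSC and 393 in control (log2 difference 1.36, counting error 0.07), so its UC-MSC level was near that of control and AD-MSC was the lower group. *Tnf* had 36.4 in AD-MSC, 53.8 in UC-MSC and 40.8 in control (log2 difference 0.56, counting error 0.18) and *Tgfb1* 74.3 in AD-MSC, 134 in UC-MSC and 91.4 in control (log2 difference 0.85, counting error 0.12). *Nos2*, inducible nitric oxide synthase, had 405 in AD-MSC, 424 in UC-MSC and 348 in control (log2 difference 0.06, counting error 0.06) and *Vegfa* 461 in AD-MSC, 443 in UC-MSC and 319 in control (log2 difference -0.06, counting error 0.06), both nearly level. The TNF and NF-kB list had 3 of 26 genes higher by 2-fold or more, *Vcam1* (87.9 to 208 normalized reads), *Ptgs2* (87.7 to 188) and *Tnfaip2* (106 to 225).

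**Figure D4:**
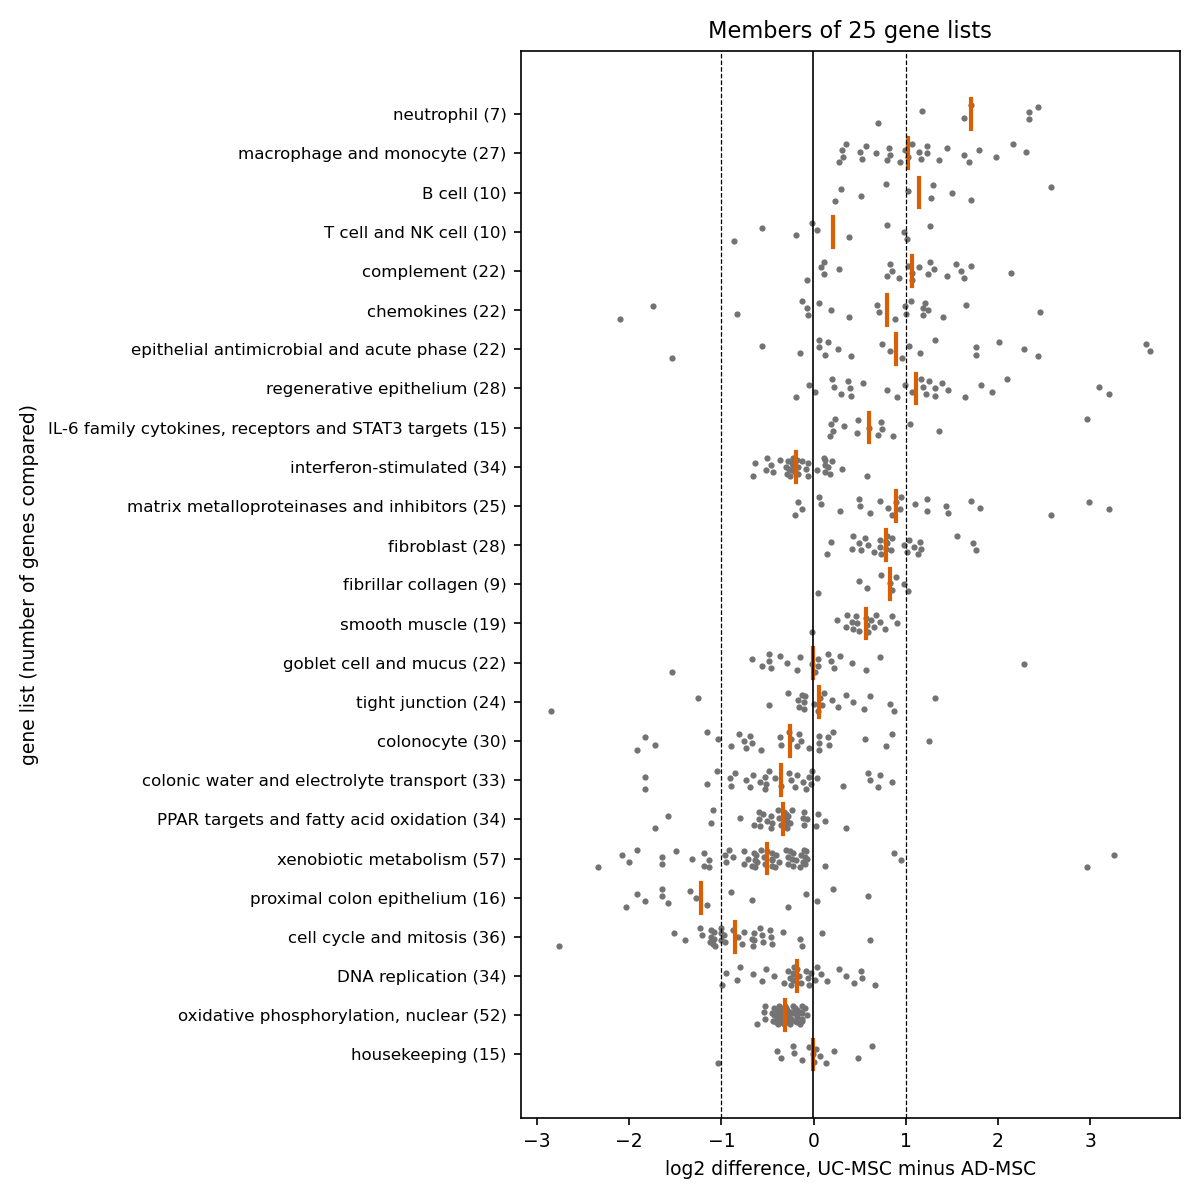
Log2 difference UC-MSC minus AD-MSC (horizontal axis) of each gene compared in 25 lists (vertical axis, number of genes in brackets), 1 grey point for each gene and an orange bar at the list's median, with the median of all genes as a solid line and 2-fold as dashed lines. Myeloid, complement and metalloproteinase lists lie to the right, proximal colon, cell cycle and xenobiotic lists to the left, and interferon, tight junction and housekeeping lists near 0.

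Stromal genes were higher together by moderate amounts. All 28 fibroblast genes compared were above 0, 9 at least 2-fold (median 0.79), and all 9 fibrillar collagen genes were above 0 (median 0.83). *Col3a1* had 4125 in AD-MSC, 8129.6 in UC-MSC and 3482 in control (log2 difference 0.98, counting error 0.02), *Col1a1* 1852 in AD-MSC, 3338 in UC-MSC and 1652 in control (log2 difference 0.85, counting error 0.02) and *Fn1*, fibronectin, 7052 in AD-MSC, 14586 in UC-MSC and 6763 in control (log2 difference 1.05, counting error 0.01). The fibroblast list summed to 14755 with AD-MSC and 28817 with UC-MSC. *Grem1*, a BMP antagonist made by crypt-base stroma, had 1284 in AD-MSC, 3769.6 in UC-MSC and 991 in control (log2 difference 1.55, counting error 0.03), and *Rspo3*, the stromal ligand that sustains crypt stem cells, 108 in AD-MSC, 238 in UC-MSC and 112 in control (log2 difference 1.13, counting error 0.10). *Pdpn*, podoplanin of activated fibroblasts and lymphatic vessels, had 69.9 in AD-MSC, 237 in UC-MSC and 104 in control (log2 difference 1.76, counting error 0.11), and *Vcan*, the proteoglycan versican of provisional matrix, 258 in AD-MSC, 805 in UC-MSC and 309 in control (log2 difference 1.64, counting error 0.06). *Lox*, which cross-links collagen, had 58.3 in AD-MSC, 145 in UC-MSC and 38.6 in control (log2 difference 1.31, counting error 0.13), and *Thbs1*, thrombospondin, 2013 in AD-MSC, 4286 in UC-MSC and 2674 in control (log2 difference 1.09, counting error 0.02).

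Muscle, nerve and vessel genes differed in the same direction but by less. Smooth muscle genes had a median of 0.57, with 18 of 19 above 0 and 0 at least 2-fold. *Myh11*, smooth muscle myosin, had 38121 in AD-MSC, 48653 in UC-MSC and 31308 in control (log2 difference 0.35, counting error 0.01), and *Des*, desmin, 11921 in AD-MSC, 17865 in UC-MSC and 9752 in control (log2 difference 0.58, counting error 0.01). The medians of the vessel list and of the enteric nerve list were 0.57 and 0.41. *Gfap*, which enteric glia raise on injury, had 41.8 in AD-MSC, 118 in UC-MSC and 32.4 in control (log2 difference 1.49, counting error 0.15). *Tac1*, the precursor of substance P in enteric neurons, had 127 in AD-MSC, 436 in UC-MSC and 293 in control (log2 difference 1.78, counting error 0.08). Muscle, fibroblast and vessel genes were higher in the same group, and the share of muscle wall in each tissue piece was not tested. Basement membrane genes had a median of 0.77, or 0.50 over the 10 that overlap no other gene, and integrin subunits 0.50.

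Mature absorptive genes of the proximal colon were lower in UC-MSC. Of 16 genes compared, 9 were lower by 2-fold or more (56.2% against 2.14% of all genes) and 0 higher by 2-fold or more, with a median of -1.22. *Cyp2c55* (chr19:39007019-39042693), a cytochrome P450 of the colon, had 4624 in AD-MSC, 1222 in UC-MSC and 1429 in control (log2 difference -1.92, counting error 0.03). *Slc9a3* (chr13:74121515-74166064), the sodium and proton exchanger NHE3 that takes up salt, had 1346 in AD-MSC, 380.4 in UC-MSC and 1008 in control (log2 difference -1.82, counting error 0.05). *Hsd3b3*, a steroid dehydrogenase, had 443 in AD-MSC, 108 in UC-MSC and 169 in control (log2 difference -2.03, counting error 0.10). The fatty acid binding protein *Fabp2* had 424 in AD-MSC, 143 in UC-MSC and 283 in control (log2 difference -1.57, counting error 0.09), and the carboxylesterase *Ces2a* 607 in AD-MSC, 195 in UC-MSC and 294 in control (log2 difference -1.64, counting error 0.08). *Aqp8*, a water channel of surface colonocytes, had 1657 in AD-MSC, 744 in UC-MSC and 1136 in control (log2 difference -1.16, counting error 0.04). For *Cyp2c55*, control was close to UC-MSC and AD-MSC was the higher group, whereas for *Slc9a3* control was closer to AD-MSC. *Car1*, *Ggh* (0.04) and *Prdx6* (-0.08) of the same list were nearly level.

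Genes of transport showed the same direction, in a list that shares *Slc9a3* and *Aqp8* with the proximal list. Of 33 water and electrolyte transport genes compared, 4 were lower by 2-fold or more, with *Slc9a3* and *Aqp8* among them. None was higher by 2-fold or more, and the median was -0.35. *Cftr*, the chloride channel of crypt secretion, had 934 in AD-MSC, 264 in UC-MSC and 807 in control (log2 difference -1.82, counting error 0.07). *Sgk1*, a kinase that raises sodium uptake, had 720.0 in AD-MSC, 349 in UC-MSC and 424 in control (log2 difference -1.04, counting error 0.06). *Aqp4* had 8125 in AD-MSC, 4353 in UC-MSC and 9711 in control (log2 difference -0.90, counting error 0.02) and *Slc26a2*, a sulfate carrier, 8074 in AD-MSC, 4851 in UC-MSC and 6363 in control (log2 difference -0.73, counting error 0.02), both within 2-fold. *Slc26a3*, the chloride and bicarbonate exchanger, had 6271 in AD-MSC, 4924 in UC-MSC and 5871 in control (log2 difference -0.35, counting error 0.02). In the other direction, *Atp12a*, the colonic proton and potassium pump, had 2343 in AD-MSC, 4222 in UC-MSC and 7297 in control (log2 difference 0.85, counting error 0.02). Of the tight junction genes, 2 of 24 were lower by 2-fold or more, the pore-forming *Cldn2* and *Cldn15*, the latter with 152 in AD-MSC, 63.4 in UC-MSC and 132 in control (log2 difference -1.26, counting error 0.14), and 1 higher by 2-fold or more, the sealing *Cldn4*.

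*Btnl1* (chr17:34377132-34385776), a butyrophilin-like protein with which mouse gut epithelium keeps its resident gamma delta T cells, had the greatest difference among lower genes averaging 200 reads or more, with 354 in AD-MSC, 68.5 in UC-MSC and 114 in control (log2 difference -2.37, counting error 0.13). *Trpm6*, a magnesium channel, had 1991 in AD-MSC, 860.4 in UC-MSC and 1672 in control (log2 difference -1.21, counting error 0.04). *Tfrc*, the transferrin receptor, had 1004 in AD-MSC, 491 in UC-MSC and 1192 in control (log2 difference -1.03, counting error 0.05).

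Metabolic genes of mature colonocytes were lower by small amounts in most cases. Of 57 xenobiotic metabolism genes compared, 5 were above 0, 12 were lower by 2-fold or more and 2 higher by 2-fold or more (median -0.50). *Sult1a1*, a phenol sulfotransferase, had 847 in AD-MSC, 271 in UC-MSC and 825 in control (log2 difference -1.64, counting error 0.06). *Gsta3*, a glutathione transferase, had 32.8 in AD-MSC, 6.47 in UC-MSC and 49.5 in control (log2 difference -2.34, counting error 0.41), and *Ugt2b35*, a glucuronosyltransferase, 41.2 in AD-MSC, 9.75 in UC-MSC and 41.6 in control (log2 difference -2.08, counting error 0.34). The exceptions at 2-fold, *Ugt1a9* and *Ugt1a10*, share their last exons with the other *Ugt1a* genes, of which *Ugt1a7c* had 872 in AD-MSC, 396 in UC-MSC and 730.4 in control (log2 difference -1.14, counting error 0.06), so these values are uncertain. Fatty acid oxidation and PPAR target genes had a median of -0.33, with 30 of 34 below 0 and 4 lower by 2-fold or more. *Ppargc1a*, a coactivator of mitochondrial genes, had 479 in AD-MSC, 221 in UC-MSC and 279 in control (log2 difference -1.11, counting error 0.07). All 52 nuclear genes of oxidative phosphorylation were below 0, none by 2-fold, with a median of -0.31 and a range from -0.61 to -0.07. *Pck1*, an enzyme of gluconeogenesis, had 1417 in AD-MSC, 601 in UC-MSC and 707 in control (log2 difference -1.24, counting error 0.04).

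Genes of mitosis were lower in UC-MSC. Of 36 cell cycle and mitosis genes compared, 34 were below 0 and 15 lower by 2-fold or more (41.7% against 2.14%), with a median of -0.85. *Mki67*, present in all cycling cells, had 2442 in AD-MSC, 1133 in UC-MSC and 2443 in control (log2 difference -1.11, counting error 0.03). *Top2a*, a topoisomerase of dividing cells, had 839 in AD-MSC, 428 in UC-MSC and 855 in control (log2 difference -0.97, counting error 0.05), and *Cenpf*, a kinetochore protein, 491 in AD-MSC, 209 in UC-MSC and 451 in control (log2 difference -1.24, counting error 0.08). *Ccna2*, cyclin A2, had 223 in AD-MSC, 111 in UC-MSC and 242 in control (log2 difference -1.002, counting error 0.11), and *Foxm1*, the transcription factor of the mitotic program, 94.9 in AD-MSC, 45 in UC-MSC and 98.3 in control (log2 difference -1.08, counting error 0.17). In each of these the control level was close to AD-MSC. The summed level of the list was 7891 for control, 7825 for AD-MSC and 4125 for UC-MSC. Genes that act before mitosis differed less. The G1 cyclins *Ccne1* (0.61) and *Ccne2* (0.10) were the 2 members above 0, and the median of the DNA replication list was -0.18, where 0 of 34 were lower by 2-fold or more. Histones made during replication had a median of -0.51, with 6 of 34 lower by 2-fold or more. The crypt stem cell list had a median of -0.08.

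Promoters of 3 mitotic genes are shown because CCAAT boxes, bound by NF-Y, are typical of genes of this phase and occur in each as a pair. The sequences are again the 150 bases before the RefSeq start on GRCm38.p6, 5′ to 3′ on the gene's strand, with capitals at CCAAT or, on the other strand, ATTGG.
*Bub1* (chr2:127831860-127832009, minus strand): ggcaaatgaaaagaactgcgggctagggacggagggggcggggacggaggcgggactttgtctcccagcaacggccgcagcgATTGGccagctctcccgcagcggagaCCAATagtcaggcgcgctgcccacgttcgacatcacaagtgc
*Cenpf* (chr1:189688087-189688236, minus strand): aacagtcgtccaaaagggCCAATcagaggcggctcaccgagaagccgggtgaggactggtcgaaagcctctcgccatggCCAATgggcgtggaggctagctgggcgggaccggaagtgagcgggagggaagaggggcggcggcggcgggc
*Ttk* (chr9:83834539-83834688, plus strand): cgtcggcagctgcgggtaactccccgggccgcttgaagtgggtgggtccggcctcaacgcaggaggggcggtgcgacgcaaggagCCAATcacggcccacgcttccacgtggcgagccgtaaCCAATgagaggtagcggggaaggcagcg
*Bub1*, a spindle checkpoint kinase, had 29.2 in AD-MSC, 10.3 in UC-MSC and 34.2 in control (log2 difference -1.51, counting error 0.34), and *Ttk*, another kinase of that checkpoint, 31.1 in AD-MSC, 13.4 in UC-MSC and 34.6 in control (log2 difference -1.21, counting error 0.30). The boxes began at -68 and -42 in *Bub1*, at -132 and -71 in *Cenpf* and at -65 and -28 in *Ttk*. In the window from 250 bases before to 50 after the start, searched on both strands, CCAAT occurred in 22 of the 28 cell cycle genes with a promoter (78.6%) and in 42.6% of the genes compared with one. TTTGAA, the cell cycle homology region bound by the DREAM complex, occurred in 20 of 28 (71.4%) and in 14.3%. Over all 27025 genes with a RefSeq promoter the shares were 41.1% and 20.2%. They describe the list and say nothing of factor activity in these mice.

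Stress and growth signals were mixed. *Hspa1a* and *Hspa1b*, the inducible HSP70 genes, which are near copies of each other, had 115 in AD-MSC, 42.8 in UC-MSC and 439 in control (log2 difference -1.43, counting error 0.17) and 758 in AD-MSC, 303 in UC-MSC and 2241 in control (log2 difference -1.32, counting error 0.06), while the list of heat shock genes had a median of -0.11. Unfolded protein response genes had a median of 0.29 and none of 23 differed 2-fold. *Hmox1*, haem oxygenase, had 30.3 in AD-MSC, 92.7 in UC-MSC and 43.3 in control (log2 difference 1.61, counting error 0.17), whereas *Nqo1*, a quinone reductase and NRF2 target like it, had 66.6 in AD-MSC, 26.9 in UC-MSC and 59.7 in control (log2 difference -1.31, counting error 0.21). *Nrg1*, a ligand of ERBB receptors made by stroma in injured gut, had 89.8 in AD-MSC, 245 in UC-MSC and 94.6 in control (log2 difference 1.45, counting error 0.10). The activin subunit *Inhba* had 35.1 in AD-MSC, 90.9 in UC-MSC and 17.3 in control (log2 difference 1.37, counting error 0.16). Wnt genes that differed 2-fold, 6 of 30, were all higher and included the antagonists *Sfrp1* (475 to 1009 normalized reads), *Sfrp4* (14.8 to 39.5) and *Sfrp5* (8.23 to 32).

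Oxidases that make superoxide or hydrogen peroxide differed in both directions. The phagocyte oxidase genes *Cybb* (95.3 to 211 normalized reads), *Ncf1* (36.9 to 94.3), *Ncf4* (13.6 to 35) and *Rac2* (23.8 to 62.8) were higher by 2-fold or more in UC-MSC. *Nox4*, an oxidase of stroma, had 4.03 in AD-MSC, 18.3 in UC-MSC and 4.95 in control (log2 difference 2.18, counting error 0.44). *Nox1*, the oxidase of colon epithelium, was 5.52-fold lower, and its activator *Noxa1* had 142 in AD-MSC, 68.7 in UC-MSC and 139 in control (log2 difference -1.05, counting error 0.13). *Duoxa1*, which matures the dual oxidase of epithelium, had 43.7 normalized reads in AD-MSC and 116 in UC-MSC, and it overlaps another gene. In all 6 of 15 were higher by 2-fold or more and 2 lower by 2-fold or more.

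Genes that mark position along the gut, or tissues next to it, also differed. The 5′ *Hoxd* genes, which are expressed toward the anal end, were higher in UC-MSC. *Hoxd13* had 26.5 in AD-MSC, 174 in UC-MSC and 91 in control (log2 difference 2.71, counting error 0.16), *Hoxd11* 10.2 in AD-MSC, 52 in UC-MSC and 26.1 in control (log2 difference 2.35, counting error 0.27) and *Hoxd10* 5.14 in AD-MSC, 28.8 in UC-MSC and 22.1 in control (log2 difference 2.49). *Krt36*, a hair-type keratin, had 3.91 in AD-MSC, 16.5 in UC-MSC and 39.8 in control (log2 difference 2.08, counting error 0.45). The distal colon list as a whole had a median of 0.12, 3 of 14 genes higher by 2-fold or more and 0 lower, and over the 10 genes with a mean of at least 50 the median was -0.03. In the list of Hox and other gut position genes 13 of 24 were below 0, with a median of -0.15. These values stood beside the lower proximal colon genes and *Cdx2*, and the part of the position of the tissue piece was not tested. Keratins and cornified envelope genes of squamous epithelium were higher: 9 of 22 compared, of 50 listed, were at least 2-fold. Members such as *Krt14* and *Krt13*, under 10 reads in AD-MSC, passed the limit through UC-MSC, so the limit itself favoured such counts. The list median of 0.76 was 1.49 without the limit on low values. *Krt14*, of basal squamous cells, had 9.14 in AD-MSC, 63.8 in UC-MSC and 10.9 in control (log2 difference 2.80, counting error 0.27), and *Krt13*, of mucosal squamous cells, 5.75 in AD-MSC, 43.7 in UC-MSC and 17.5 in control (log2 difference 2.93, counting error 0.34). *Krt5* and *Trp63*, which define basal squamous cells, went from 3.86 and 1.78 normalized reads with AD-MSC to 10.9 and 4.56 with UC-MSC, both under the limit of 10 reads and each with reads in 2 of 3 UC-MSC libraries. The squamous list summed to 20849 for AD-MSC, 29139.6 for UC-MSC and 27404 for control. *Sprr1a*, which this list shares with the regenerative list, had 40.9 in AD-MSC, 351 in UC-MSC and 199.8 in control (log2 difference 3.10, counting error 0.13).

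Pancreatic enzyme genes were among the greatest differences but had few reads. *Ctrb1*, chymotrypsinogen, was listed at the floor of 1 normalized read in AD-MSC and at 40.0 in UC-MSC. *Ctrl* had 3.02 in AD-MSC, 21.4 in UC-MSC and 3.31 in control (log2 difference 2.82) and *Cpb1* 2.86 in AD-MSC, 18.3 in UC-MSC and 1.69 in control (log2 difference 2.67, counting error 0.50). *Prss2* and *Pnlip* had reads in 1 of 3 UC-MSC libraries, and *Cpa1* in 2. The list had 5 of 10 genes higher by 2-fold or more. Members such as *Ctrl* and *Cpb1*, under 10 reads in AD-MSC, passed the limit through UC-MSC, so the limit itself favoured such counts. The list's sum of 11281 for AD-MSC and 10742 for UC-MSC was carried by genes the colon also expresses. Of 10 mesothelial genes compared, 2 were higher by 2-fold or more and 2 lower (median 0.21). The defining markers were low, with *Msln* at 4.19 to 5.87, *Lrrn4* at 16.5 to 5.69 and *Upk3b* at 20.7 to 11.4 normalized reads, the latter pair with reads in 2 of 3 UC-MSC libraries. The adipocyte genes *Adipoq* (32.5 to 30.4) and *Plin1* (8.91 to 11.9) were nearly level.

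The ranked genes with small or moderate counts add neural and metabolic names. *Slc1a2*, a glutamate transporter, had 54.2 in AD-MSC, 8.87 in UC-MSC and 17.3 in control (log2 difference -2.61, counting error 0.35). *Itpka*, an inositol phosphate kinase, had 46 in AD-MSC, 8.58 in UC-MSC and 18.7 in control (log2 difference -2.42, counting error 0.35), and *Nxpe2* 236 in AD-MSC, 33.9 in UC-MSC and 304 in control (log2 difference -2.80, counting error 0.18). The remaining genes among the 12 greatest in each direction were *Ctrb1*, *Cel*, *Sprr2h*, *Crnn*, *Slpi*, *Ang4*, *Pnliprp2*, *AI747448*, *Aldh1a3*, *Ugt1a9*, *Mmp10* and *Sprr1a* on the higher side and *Slc30a10*, *Otc*, *Azgp1*, *Cldn2*, *Esco2*, *Hpca*, *Mettl7a2*, *Nox1* and *Car11* on the lower. In *Cel*, *Sprr2h*, *Pnliprp2*, *Ugt1a9*, *Otc*, *Hpca* and *Mettl7a2* at least 1 library of the lower group had no reads or was at the floor. The size of these differences is therefore uncertain. *AI747448*, which RefSeq names *Clca4b*, had 541 in AD-MSC, 5732 in UC-MSC and 1413 in control (log2 difference 3.40, counting error 0.03), and *Aldh1a3*, which makes retinoic acid, 72.6 in AD-MSC, 719 in UC-MSC and 99 in control (log2 difference 3.31, counting error 0.09).

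Families of genes were also read by symbol. Of 15 keratins compared, 15 were above 0, and of 18 serpins 8 were higher by 2-fold or more (median 0.79). Of 9 S100 genes 5 were higher by 2-fold or more. Collagen chains had a median of 0.73, with 29 of 32 above 0. All 17 glutathione transferases were below 0 (median -0.45), and cytochromes P450 had a median of -0.45, with 5 of 29 lower by 2-fold or more and a median of -0.09 without the limit on low values. Solute carriers (-0.03), translation initiation factors (-0.03), proteasome (0.03) and spliceosome genes (0.02) had medians near 0. The other scalings shifted every gene alike, by too little to change the direction of a median of at least 0.5 in size.

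Technical properties of the libraries differed somewhat. The UC-MSC libraries were the smallest, with summed raw means of 5.03e+06 reads against 8.22e+06 in AD-MSC. Housekeeping genes had a median of -0.00, and ribosomal protein genes -0.19. *Lars2*, the gene of the mitochondrial leucyl-tRNA synthetase, had 71216 in AD-MSC, 148245 in UC-MSC and 34029.9 in control (log2 difference 1.06). Whether these reads came from the synthetase transcript was not tested. Together with *Gm20594*, *Lars2* took 3.73% of protein-coding normalized reads in UC-MSC and 2.66% in AD-MSC. With the genes in 5 equal bins by level, 11.1% of the lowest bin were higher by 2-fold or more and 5.75% lower by 2-fold or more, against 1.47% and 0.922% of the highest bin. By exon length, the bin of the shortest genes had 6.80% and that of the longest 2.08% higher by 2-fold or more. By GC content the median difference ran from -0.05 in the lowest bin to 0.05 in the highest. The part of level, length and GC content in the list results was not tested.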

How the data were processed

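Total RNA of the middle colon was made into stranded libraries (SMARTer Pico), 3 for each group, and read on a HiSeq2500. Samples with an RNA integrity number under 7 had been left out. The study's methods name Strand NGS, and DESeq, bcl2fastq 1.8.4 and GRCm38/mm10 are named in the submitters' processing notes. For the aligner and the strand setting of the counts, the entry is: not given in the sources used here. Overlapping genes (42.1% of those compared) therefore cannot be fully told apart.

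The deposited table held 1 value for each gene and group: the authors' mean over 3 libraries of log2 normalized reads, set to at least 1 read before averaging, and a raw mean of reads over the libraries that had them. The columns of single libraries left unused numbered 0. This form was deduced from the numbers: for genes above 50 raw reads, log2 raw minus log2 normalized gave 1 constant for each group. Size factors recovered from genes without reads in some libraries were, in no known order, 0.893, 1.47 and 1.51 for AD-MSC libraries and 0.538, 0.728 and 0.939 for UC-MSC libraries. Reads in every library of both groups were found for 13508 of the 13557 genes compared.

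The log2 means of UC-MSC and AD-MSC were subtracted. A test on single libraries had been planned, and it could not be run on means. Called means at least 2-fold. The counting error treats reads as Poisson: the variances 1/(3 × raw reads) of the groups were added and the root was put on the log2 scale, with a median of 0.10. It is left out where a library had no reads or was at the floor, and it covers counting error only. The labels call the libraries biological replicates.

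In all 68 gene lists and 33 families were described by counts and medians. The 1732 listed names included 1685 in the table and 1365 compared. Members and lists were chosen with earlier results of these data known, and lists share genes. Genes named were the 12 greatest differences in each direction, provided that each library of the higher group had reads and the gene was not a predicted one, the 10 greatest with a mean of at least 200, up to 4 members with at least 2-fold in a list, and defining markers. Other members were added after their values were seen, and some genes that the rule names are not reported here. Exon length and GC content came from GENCODE M21, with values for 99.3% of genes, and promoters from RefSeq (GRCm38.p6). The steps were tested on simulated data. Python 3.11.15, pandas 2.3.3 and numpy 2.4.6 were used. The alternatives were another minimum, no minimum, a pseudocount of 10, other scalings, all gene types, and leaving out overlapping genes or those without reads in some library.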

Additional observations from a re-analysis of the deposited data

Results flagged for a closer look

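Genes outside the protein-coding comparison showed a signal above control in the higher MSC group, by at least 2-fold between the MSC groups and at 200 normalized reads or more on average. The long noncoding RNA *Gm11636* had 1101 normalized reads in AD-MSC, 1.23 in UC-MSC and 10.6 in control, a log2 difference UC-MSC minus AD-MSC of -9.81. The pseudogene *9130208D14Rik* had 1468 in AD-MSC, 434 in UC-MSC and 1109 in control, a difference of -1.76. Higher in UC-MSC were *Metazoa_SRP*, an RNA of the signal recognition particle type (1.98), *5_8S_rRNA* (1.36), the miRNA gene *AC160935.1* (1.51), the pseudogene *Gm12913* (1.21) and the antisense gene *Gm15564* (1.09). Counts of short or repeated RNAs are uncertain, and none of these genes has a replicate check.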

How the results depend on the processing

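No paired analysis was possible because the table held group means only, and for the same reason no replicate could be left out in turn. The count of genes at least 2-fold higher was 259 with a minimum mean of 50, 1148 without a minimum and 325 with a pseudocount of 10. The count at least 2-fold lower was 119, 775 and 127 under the same settings. Fewer or more genes enter under the first pair of settings, and a pseudocount shrinks low genes by construction. Under the other alternatives both counts stayed within 1.5 times. The median of the metalloproteinase list was 1.10 without overlapping genes. The median of the regenerative list was 1.03 without a minimum, 1.02 with a pseudocount of 10, 1.06 with equal totals and 1.22 without overlapping genes. The median of the proximal colon list was -1.28 with a minimum mean of 50, with equal totals and without overlapping genes, and -1.16 without a minimum. Among lists and families described, medians near 0 shifted by more than 1.5 times or changed sign under some alternatives. Some larger medians also shifted by more than 1.5 times. The exocrine pancreas median went from 1.82 to 0.15 with a minimum mean of 50 and to 2.87 without a minimum. The lymphoid follicle median went from 0.87 to 0.46 with a pseudocount of 10 and to 0.34 without overlapping genes. The S100 median went from 1.05 to 0.69 with a minimum mean of 50. Some other moves are given beside the antimicrobial, neutrophil, B cell, T cell, red cell, basement membrane, distal colon, squamous and cytochrome P450 values. No list or family with a median of at least 0.5 in size changed direction under any alternative. For named genes of at least 2-fold the same was fixed in advance. The filters left each gene's difference unchanged, a pseudocount kept its sign, and the scalings shifted it by far less than 2-fold. Of 189 named genes at least 2-fold apart, 140 remained so with a pseudocount of 10, 180 with equal totals and 182 with totals that left out *Lars2* and *Gm20594*, a scaling chosen after seeing the data. Depth limits the low genes most, since a gene near 10 normalized reads can pass 2-fold through a few reads.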
